A study of Mus musculus with 9 samples.

Results

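The genes described here are 10 widely used markers of macrophages: Csf1r, Adgre1, Cd68, C1qa, C1qb, C1qc, Lyz2, Mrc1, Cd14 and Itgam. They were followed through every probe set that the array annotation assigns to them, 14 of 45101 probe sets in all, for 10 of the 18194 genes that have a probe set of their own. The tumours were T-cell lymphomas of G3 Atm-/-TERT-ER mice, which lack the DNA damage kinase Atm and carry a fusion of TERT, the catalytic subunit of telomerase, to the oestrogen receptor, so that the drug 4-hydroxytamoxifen (4-OHT) turns telomerase on. All 9 samples were labelled with SCID recipients, a strain that lacks mature T and B cells but keeps its monocytes and macrophages. The 5 ALT tumours (ALT 1 to ALT 5) were kept on vehicle to passage 4 and maintain telomeres by alternative lengthening, the 3 telomerase tumours (telomerase 1 to telomerase 3) were kept on 4-OHT to passage 4, and 1 array was the telomerase-positive parental tumour, for which the labels name no drug or passage. Drug and telomere mechanism therefore cannot be told apart. The labels do not say that tumours of a group grew in different animals, and a p-value below therefore reflects the spread among these arrays alone, which may be technical.

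Macrophages arise from monocytes or from embryonic precursors, settle in tissues and tumours, and clear dying cells, debris and microbes. They depend on signalling through the CSF1 receptor and carry sets of uptake receptors, lysosomal proteins and complement components that together mark them in tissue RNA. In lymphomas they are a regular part of the stroma and take up dying tumour cells. Tumour and recipient are both mouse, so an array does not show which cells a transcript came from, and in such bulk RNA fewer macrophages and less RNA per macrophage cannot be told apart.

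Each value below is a MAS5 signal, the authors' summary of a probe set on a linear intensity scale; a log2 change is ALT minus telomerase on log2(signal + 16), a scale that understates the change of dim genes, and was tested with limma. The median signal of an array lay between 39.8 and 43.8, and the number of arrays limits the precision. Signals of different probe sets are not on a common scale, so levels were compared between arrays and not between genes. The arrays differed in other tissue. Summed over 12 genes of pancreatic acinar cells, ALT 1, 2 and 5 and telomerase 3 gave 89294 to 184020, and the other 5 arrays gave 278 to 955. Summed over 13 skeletal muscle genes, telomerase 1 gave 10349 and the parental tumour 15502, against 266 to 708 in the other 7 arrays. Summed over 17 T-cell genes, the signal was 37570 to 45410 in the ALT tumours and 48612 to 52701 in the telomerase tumours, ranges that did not overlap. The sum is carried by its brightest genes. Of the 17, 3 passed the limma threshold as higher and 6 as lower in ALT tumours, 52.9% beside 17.5% of all tested genes. Over all tested genes 7.48% were higher and 10.1% lower. The median log2 change of the 17 was 0.00, with calls in both directions. The part of these tissues in the results below was not tested.

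Cd14 was the 1 marker of the 10 that passed the adjusted threshold between the groups, and it was higher in the ALT tumours. Over all 12369 tested genes 17.5% were past the adjusted threshold of 0.05, 7.48% with a higher and 10.1% with a lower signal in ALT tumours, and the 1 of 10 markers (10%) lies below that share. All 10 markers were above the expression filter. Over probe sets, 1 of the 14, that of Cd14, passed and was higher, where 20.2% of the 22354 tested probe sets passed and 7.72% were higher in ALT. The groups did not overlap for Cd14 alone among the 10, against 24.8% of all tested genes. The log2 change was positive for 2 markers and negative for 8, with a median of −0.16 over the 10 beside −0.01 over all tested genes. At an unadjusted p of 0.05 a second marker, Mrc1, passed, where 31.4% of all tested genes did.

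**Figure D1:**
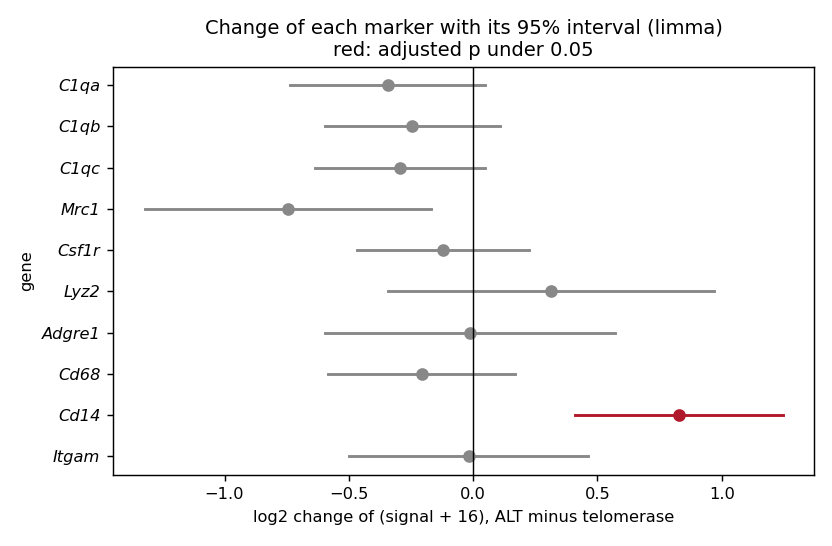
Log2 change (ALT minus telomerase, on the signal plus 16) of the 10 macrophage markers, with the point as the limma estimate and the bar as its 95% interval; red marks an adjusted p under 0.05 over all genes. Cd14 lies at 0.83 and is the single gene past the threshold, and Mrc1 lies at −0.75 with an interval that stays below 0 before adjustment.

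Cd14 encodes the membrane protein that hands bacterial lipopolysaccharide to the TLR4 receptor. Its signals were 231, 139, 143, 179 and 153 in ALT 1 to ALT 5, against 68.3, 83.6 and 112 in telomerase 1 to 3. Every ALT tumour lay above every telomerase tumour, ALT 1 was the highest and telomerase 1 the lowest. The mean was 169 ± 37.9 in ALT tumours (SD, n = 5) and 88.1 ± 22.3 in telomerase tumours (SD, n = 3), a log2 change of 0.83 (SE 0.186, limma adjusted p = 0.0139, 95% interval 0.41 to 1.24). The parental tumour, at 89.5, lay inside the telomerase range and below all ALT tumours. Leaving out telomerase 1 ended the call (0.69, adjusted p = 0.0722), as did leaving out telomerase 2 (0.81, adjusted p = 0.0518); over the 8 fits that each left out 1 array the adjusted p ran from 0.0127 to 0.0722. Within the 4 arrays without acinar transcripts, 2 ALT and 2 telomerase tumours, it was 0.94 (adjusted p = 0.0345). Within the 4 arrays with them, where telomerase 3 is the single telomerase tumour and its spread is taken from the ALT tumours, it was 0.54 (adjusted p = 0.426). With the acinar level as a covariate over all 8 tumours it was 0.76 (adjusted p = 0.0251).

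Cd14 lies on chromosome 18. Among the 10 tested genes nearest to it in the RefSeq gene order, 5 on either side, 1 was higher and 0 were lower in ALT tumours at the same threshold, with log2 changes from −0.06 to 0.41 and a median of 0.15. A wider list held Toll-like receptors, their partners and genes downstream of them, with Tlr7, Tlr9, Nlrp3 and Tnf among them. It is therefore not a list of lipopolysaccharide sensors alone. Of its 17 tested genes 0 passed the limma threshold, beside 17.5% of all genes. An unadjusted p under 0.05 was found for 5, beside 31.4% of all genes. The log2 change was positive for 11 of the 17 and negative for 6. With the parental tumour counted among the telomerase tumours 4 passed, all higher in ALT, where 3065 of all 12369 genes passed instead of 2170. With quantile normalisation 2 passed, both higher, where 2185 of all genes passed. Ly96, which encodes the MD-2 subunit that binds lipopolysaccharide beside TLR4, had signals of 48.7 ± 7.56 in ALT tumours (SD, n = 5) and 56.1 ± 8.16 in telomerase tumours (SD, n = 3), with an adjusted p of 0.511. Tlr4 was not among the tested genes.

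Mrc1 encodes the mannose receptor CD206, which takes up glycoproteins and is prominent on tissue-resident and alternatively activated macrophages. Its signals were 114, 135, 86.5, 193 and 129 in ALT 1 to ALT 5, against 181, 179 and 346 in telomerase 1 to 3. ALT 4 overlapped the telomerase tumours and telomerase 3 stood highest, with 4.01 times the signal of ALT 3, the lowest array. The mean was 131 ± 39.0 in ALT tumours (SD, n = 5) and 236 ± 96.0 in telomerase tumours (SD, n = 3), a log2 change of −0.75 (SE 0.257, 95% interval −1.32 to −0.17) that missed the threshold (limma adjusted p = 0.0741). Without ALT 4 it passed, at −0.88 (adjusted p = 0.0354), and within the arrays with acinar transcripts it passed at −1.35 (adjusted p = 0.0261, with telomerase 3 as the single telomerase tumour). Without telomerase 3 it was −0.45 with an adjusted p of 0.249, and within the arrays without acinar transcripts −0.42 with an adjusted p of 0.482. The parental tumour gave 168, inside the ALT range and below the 3 telomerase tumours.

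Promoter sequence from RefSeq, build GRCm38.p6, was at hand for 6 of the 10 markers, and the 250 bases before the annotated start are shown for 5 of them: C1qb, C1qc and Mrc1, whose signals ran together across the tumours, and Lyz2 and Cd68, which followed another order of tumours. Capitals mark the core GAGGAA of the binding motif of PU.1, the transcription factor that macrophages need, on either strand (TTCCTC on the other), and TGAGTCA, the AP-1 motif.
C1qb, chr4:136886201-136886450, - strand: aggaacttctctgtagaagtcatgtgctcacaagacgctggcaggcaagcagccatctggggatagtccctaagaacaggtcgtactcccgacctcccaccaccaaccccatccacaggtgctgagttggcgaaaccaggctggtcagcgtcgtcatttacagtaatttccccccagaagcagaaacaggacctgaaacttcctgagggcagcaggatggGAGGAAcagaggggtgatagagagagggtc
C1qc, chr4:136892915-136893164, - strand: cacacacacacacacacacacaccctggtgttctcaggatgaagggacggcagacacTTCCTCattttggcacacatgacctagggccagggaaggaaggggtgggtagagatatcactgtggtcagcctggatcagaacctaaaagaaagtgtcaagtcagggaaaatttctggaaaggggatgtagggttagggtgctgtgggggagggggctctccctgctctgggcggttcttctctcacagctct
Mrc1, chr2:14229164-14229413, + strand: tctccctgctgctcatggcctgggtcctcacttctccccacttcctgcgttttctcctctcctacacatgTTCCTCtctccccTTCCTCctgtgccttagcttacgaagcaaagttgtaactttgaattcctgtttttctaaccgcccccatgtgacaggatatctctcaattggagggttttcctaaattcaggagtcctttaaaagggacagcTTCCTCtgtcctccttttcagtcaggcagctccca
Lyz2, chr10:117282273-117282522, - strand: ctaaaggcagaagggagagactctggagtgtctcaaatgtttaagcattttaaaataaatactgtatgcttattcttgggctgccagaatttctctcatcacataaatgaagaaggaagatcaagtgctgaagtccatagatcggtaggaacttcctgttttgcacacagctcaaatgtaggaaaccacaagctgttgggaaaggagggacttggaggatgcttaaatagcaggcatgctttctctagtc
Cd68, chr11:69666171-69666420, - strand: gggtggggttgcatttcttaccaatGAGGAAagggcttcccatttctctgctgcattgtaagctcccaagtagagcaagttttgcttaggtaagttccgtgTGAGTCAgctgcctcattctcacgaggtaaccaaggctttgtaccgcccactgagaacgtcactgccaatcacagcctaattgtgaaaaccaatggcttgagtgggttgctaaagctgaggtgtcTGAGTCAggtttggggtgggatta
GAGGAA occurs in 23.3% of all 32851 such windows and was found in 5 of the 6 marker windows, 1 time each in C1qb, C1qc and Cd68, 2 times in Itgam and 3 times in Mrc1. TGAGTCA occurs in 4.46% of all windows and was found 2 times in Cd68 and in none of the other 5. The hit lies 30 bases before the start in C1qb and 193 before it in C1qc, on opposite strands, and no hit overlaps another. The letters GAGGAA are not in the Lyz2 window, which says nothing about the factor; a match is a description of sequence and not a bound site.

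The genes C1qa, C1qb and C1qc encode the chains of C1q, the recognition molecule that starts the classical complement pathway when it binds antibody complexes or dying cells; in tissues it is made mainly by macrophages. C1qa gave 1240, 1362, 864, 1453 and 1294 in ALT 1 to ALT 5, against 1470, 1322 and 1938 in telomerase 1 to 3. C1qb gave 782, 867, 710, 1075 and 845 in the ALT tumours, against 933, 853 and 1282 in the telomerase tumours. C1qc gave 646, 704, 494, 792 and 652 in the ALT tumours, against 752, 713 and 961 in the telomerase tumours. In all 3 genes telomerase 3 was the highest and ALT 3 the lowest of the 9 arrays, ALT 4 was the highest ALT tumour, and the groups overlapped.

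The log2 changes of the chains were −0.34 for C1qa (SE 0.175, limma adjusted p = 0.214, 95% interval −0.73 to 0.05), −0.24 for C1qb (SE 0.158, adjusted p = 0.328, interval −0.60 to 0.11) and −0.30 for C1qc (SE 0.153, adjusted p = 0.219, interval −0.64 to 0.05). None passed the threshold. Without telomerase 3 they were −0.19, −0.07 and −0.17, and within the 4 arrays with acinar transcripts, telomerase 3 among them, −0.57, −0.62 and −0.52, with none past the threshold (lowest adjusted p = 0.105). The parental tumour, at 1210, 779 and 600, lay below all 3 telomerase tumours and within the ALT range for each chain. The 2 further probe sets of C1qb, whose names carry the x suffix that Affymetrix gives to probes shared with other transcripts, had log2 changes of −0.13 and −0.21 (adjusted p = 0.627 and 0.443 over all probe sets), and both were highest in telomerase 3 and lowest in ALT 3 as well.

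**Figure D2:**
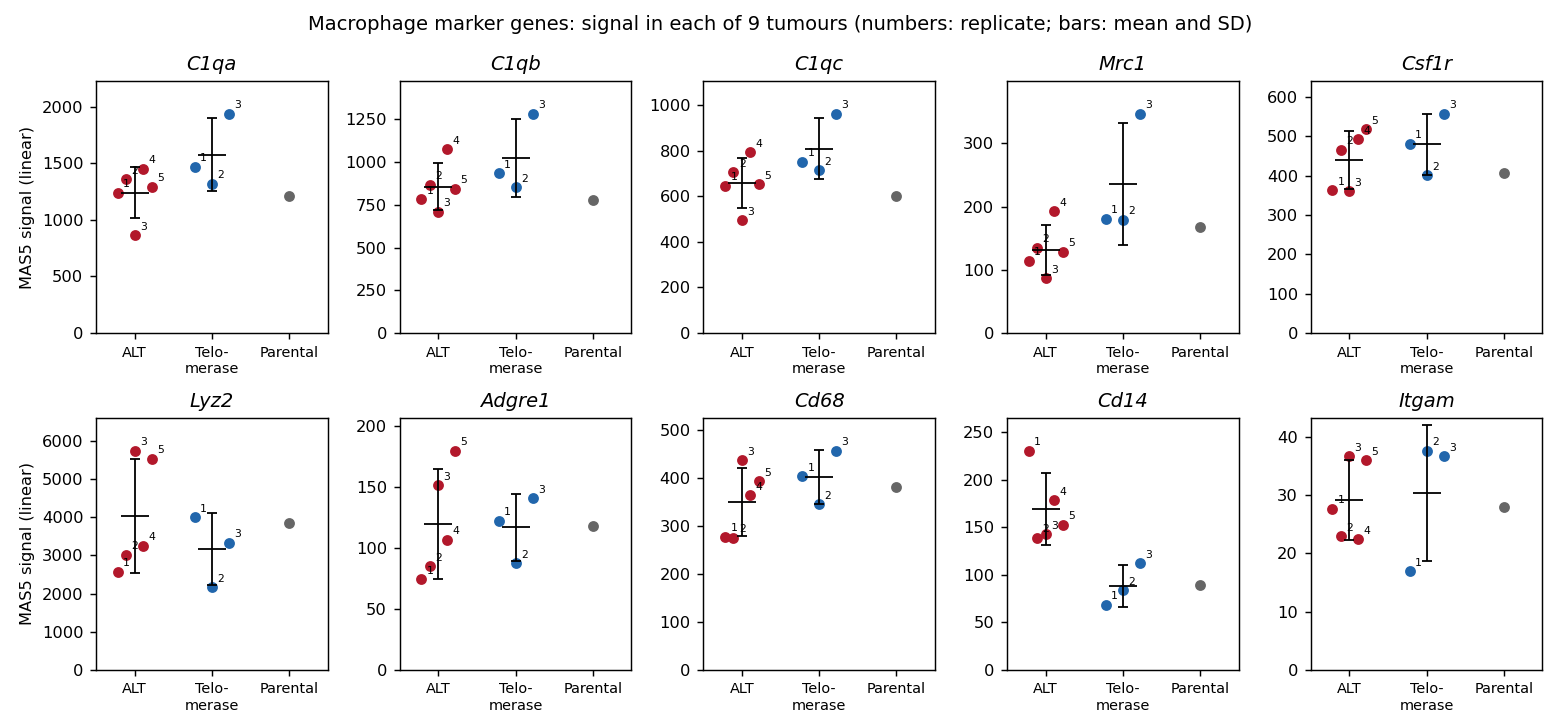
MAS5 signal (linear axis from 0) of the 10 markers in each of the 9 tumours, with ALT in red, telomerase in blue and the parental tumour in grey; digits are replicate numbers, and the black bar is the mean with SD. The Cd14 groups do not overlap, telomerase 3 is the highest array for C1qa, C1qb, C1qc, Mrc1, Csf1r and Cd68, and ALT 3 and ALT 5 are the highest for Lyz2 and Adgre1.

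Csf1r encodes the receptor for CSF1 and IL-34, the growth factors on which macrophages depend. Its brightest probe set gave 364, 467, 360, 492.8 and 519 in ALT 1 to ALT 5, against 481, 401 and 557 in telomerase 1 to 3, so the groups overlapped, with telomerase 3 highest and ALT 3 lowest. The means were 440 ± 73.9 in ALT tumours (SD, n = 5) and 480 ± 78.3 in telomerase tumours (SD, n = 3), a log2 change of −0.12 (SE 0.155, limma adjusted p = 0.634, 95% interval −0.47 to 0.22). The probe sets of the gene did not all point one way: the second had −0.07 (adjusted p = 0.832 over all probe sets) and the dimmest 0.10 (adjusted p = 0.683), and ALT 3 was the lowest array in each. The parental tumour gave 407, within both groups. Csf1r also lies on chromosome 18, where 3 of its 10 nearest tested genes were higher and 1 was lower in ALT tumours.

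Lyz2 encodes lysozyme M, which cuts bacterial cell walls and is the promoter source of a widely used Cre line for myeloid cells. Its signals were 2572, 3018, 5751, 3258 and 5535 in ALT 1 to ALT 5, against 4007, 2160 and 3336 in telomerase 1 to 3. ALT 3 and ALT 5 stood above all others and telomerase 2 was the lowest. The means were 4027 ± 1498 in ALT tumours (SD, n = 5) and 3168 ± 935 in telomerase tumours (SD, n = 3), a log2 change of 0.31 (SE 0.294, limma adjusted p = 0.512, 95% interval −0.34 to 0.97). Over the fits that left out 1 array it ran from 0.06 to 0.50. Its neighbour and close copy Lyz1, which in the mouse is known from Paneth cells of the gut, has 3 probe sets. The pair with the x suffix, which marks probes shared with other transcripts, ran in parallel with Lyz2, with means of 6753 and 5408 over the 9 arrays, while the third, without the suffix, stayed between 6.91 and 51.1. The bright Lyz1 values are therefore uncertain as a measure of that gene.

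Adgre1 encodes F4/80, the classical surface marker of mouse macrophages. Its signals were 74.3, 85.0, 151, 107 and 180 in ALT 1 to ALT 5, against 122, 87.1 and 141 in telomerase 1 to 3, with ALT 5 highest and ALT 1 lowest. The means were 119 ± 44.8 in ALT tumours (SD, n = 5) and 117 ± 27.3 in telomerase tumours (SD, n = 3), a log2 change of −0.01 (SE 0.261, limma adjusted p = 0.981, 95% interval −0.60 to 0.57). The sign of this change turned with quantile normalisation (0.06), so no direction is given for it.

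Cd68 encodes macrosialin, a glycoprotein of late endosomes and lysosomes. Its signals were 277, 275, 437, 364 and 393 in ALT 1 to ALT 5, against 403, 345 and 456 in telomerase 1 to 3. ALT 1 and ALT 2 were the lowest arrays, and the other ALT tumours lay among the telomerase tumours. The means were 349 ± 71.6 in ALT tumours (SD, n = 5) and 401 ± 55.5 in telomerase tumours (SD, n = 3), a log2 change of −0.21 (SE 0.168, limma adjusted p = 0.444, 95% interval −0.58 to 0.17). Within the arrays without acinar transcripts the change was 0.09 and within those with them −0.53, and neither passed (adjusted p = 0.785 and 0.335).

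Itgam encodes CD11b, the alpha chain of the integrin Mac-1, which binds complement-coated particles. Its signals were 27.7, 23.0, 36.7, 22.5 and 36.0 in ALT 1 to ALT 5, against 16.9, 37.7 and 36.7 in telomerase 1 to 3, below the median probe set of every array. The means were 29.2 ± 6.86 in ALT tumours (SD, n = 5) and 30.4 ± 11.7 in telomerase tumours (SD, n = 3), a log2 change of −0.02 (SE 0.216, limma adjusted p = 0.967). This marker was barely above the expression filter of 25.3, and the deposited table has no detection calls.

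Between tumours the markers did not vary as 1 block. Over the 45 pairs of markers the correlation of log2 signals across the 9 arrays had a median of 0.11, with 11 pairs above 0.7 and 5 below −0.3; these are descriptions, and the arrays share group, dissected tissue and normalisation. The C1q chains were close to each other, with r of 0.91 for C1qa and C1qb, 0.98 for C1qa and C1qc and 0.95 for C1qb and C1qc. Mrc1 followed them, with r of 0.91, 0.90 and 0.90 to C1qa, C1qb and C1qc, and so did Csf1r, with 0.80, 0.82 and 0.77. As deviations from the group means over the 8 passaged tumours, Mrc1 had r of 0.91, 0.99 and 0.95 to the chains and Csf1r 0.80, 0.80 and 0.76. Without the 2 arrays farthest from the median of the chain, telomerase 3 and ALT 3 for C1qa, the r of C1qa and Mrc1 was 0.55, and that of C1qa and C1qc was 0.95.

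Lyz2, Adgre1 and Cd68 followed another order of tumours. The r across the 9 arrays was 0.87 for Adgre1 and Lyz2, 0.84 for Adgre1 and Cd68 and 0.61 for Lyz2 and Cd68. Between the sets it was −0.41 for C1qa and Lyz2, −0.07 for C1qa and Adgre1 and 0.08 for C1qa and Cd68. Other pairs between the sets were positive, with 0.42 for Csf1r and Adgre1, 0.34 for Csf1r and Cd68, 0.31 for C1qb and Cd68 and 0.35 for Mrc1 and Cd68, so the sets were not sharply apart. For Lyz2, the r was −0.23 with C1qb and −0.45 with C1qc. Without the 2 arrays farthest from the median of the chain it was 0.05 with C1qa, −0.29 with C1qb and −0.20 with C1qc, so the negative sign for C1qa rests on telomerase 3 and ALT 3. Cd14 followed neither set across the 9 arrays. Its r was −0.21, −0.11 and −0.17 with C1qa, C1qb and C1qc, −0.41 with Mrc1 and −0.17 with Csf1r. With Lyz2, Adgre1 and Cd68 it was 0.01, −0.17 and −0.43. As deviations from the group means, Cd14 had r of 0.44, 0.41 and 0.46 to the chains, 0.49 to Mrc1 and −0.48 to Lyz2.

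ALT 3 showed opposite values in the 2 sets, and telomerase 3 did so for Lyz2 but not for Adgre1 and Cd68. Relative to each gene's mean over the 9 arrays on the log2 scale, ALT 3 lay at −0.61, −0.32 and −0.47 for C1qa, C1qb and C1qc and at −0.77 for Mrc1. In the same tumour Lyz2 lay at 0.69, Adgre1 at 0.36 and Cd68 at 0.25. Telomerase 3 had 0.54, 0.52 and 0.47 for the C1q chains and 1.05 for Mrc1, beside −0.09 for Lyz2, 0.27 for Adgre1 and 0.31 for Cd68, so Adgre1 and Cd68 were high there together with the chains. ALT 1 was low for 9 of the 10 markers and highest of all arrays for Cd14, at 0.80. The mean over the 10 centred markers ran from −0.17 in ALT 1 to 0.15 in ALT 5 among the ALT tumours, and was −0.02, −0.14 and 0.35 in telomerase 1 to 3 and −0.08 in the parental tumour.

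**Figure D3:**
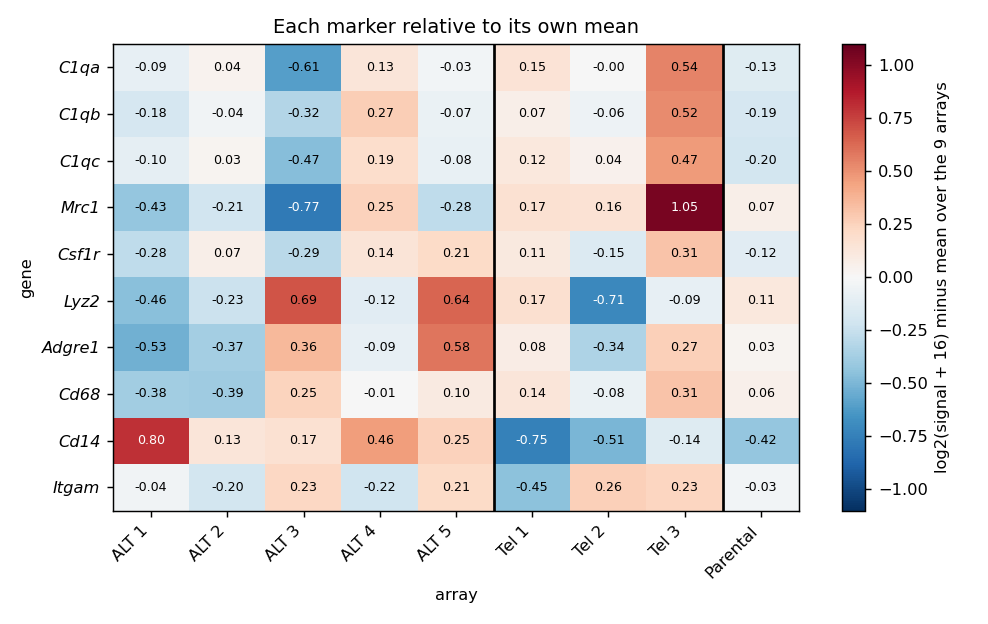
Log2(signal + 16) of each marker minus its own mean over the 9 arrays, with genes down the page and arrays across, ALT left, telomerase in the middle and the parental tumour right; red is above and blue below the gene's mean. The upper rows (C1q chains, Mrc1, Csf1r) are highest in telomerase 3 and low in ALT 3, while Lyz2 and Adgre1 are high in ALT 3 and ALT 5.

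Fibroblast markers were highest in the same tumours as Lyz2. Summed over 13 fibroblast genes (the list without Thy1, which T cells also express), the signal was 10892 in ALT 5 and 10120 in ALT 3, the highest of the 9 arrays as for Lyz2, and 5703, 7115 and 6256 in ALT 1, 2 and 4. It was 9167, 7817 and 6606 in telomerase 1 to 3 and 8269 in the parental tumour. The summed acinar signal was high in telomerase 3, where the C1q chains peaked, and in ALT 1, 2 and 5. With the acinar level as a covariate the log2 changes of C1qa, C1qb and C1qc were −0.44, −0.29 and −0.36, and none passed. The part of pancreatic tissue in the C1q pattern was not tested. The 12 measured neutrophil genes summed to 435 to 553 in ALT tumours and 368 to 448 in telomerase tumours. Elane, Prtn3 and Cxcr2 stayed below 16 throughout. Lcn2 was brighter, with 139 to 266 in ALT tumours and 82.1 to 174 in telomerase tumours. Ngp ran from 56.8 to 104 and S100a8 from 46.9 to 96.9 over the arrays. The part of the neutrophil markers in the Lyz2 pattern was not tested.

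**Figure D4:**
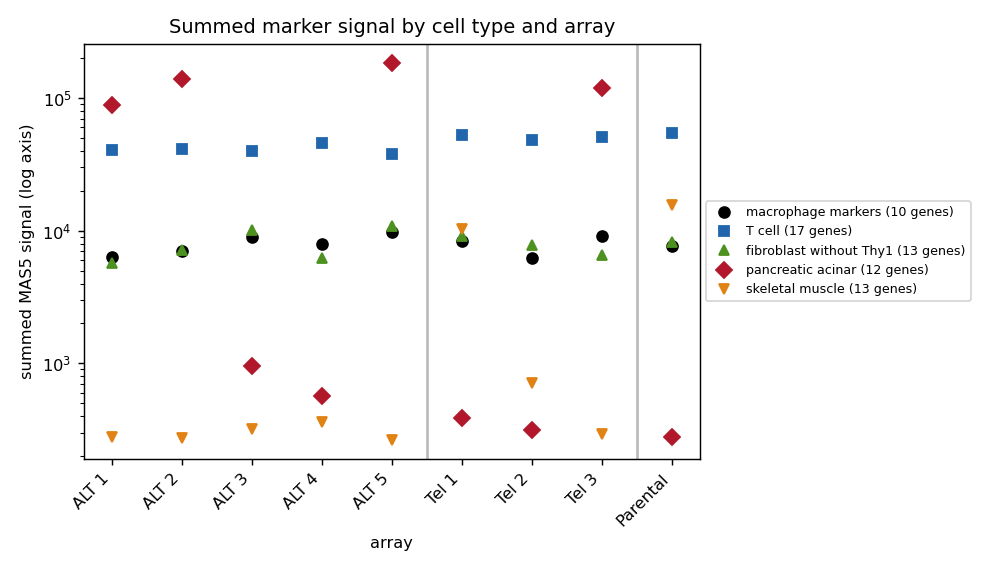
Summed MAS5 signal (log axis) of the 10 macrophage markers and of T-cell, fibroblast, pancreatic acinar and skeletal muscle gene lists in each array, ALT left of telomerase and the parental tumour last. The macrophage sum lies between 6182 and 9734, while the acinar sum runs from 278 to 184020 and the muscle sum from 266 to 15502. The macrophage sum is carried by its brightest genes, Lyz2 and the C1q chains, and does not show the spread of the dimmer markers.

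Other genes of macrophages and myeloid cells gave a mixed picture. Of 32 tested genes of that list 2 rose and 4 fell in ALT tumours, 18.8% beside 17.5% of all genes, with a median log2 change of −0.17. Fcgr2b, the inhibitory receptor for IgG, had signals of 45, 72.8, 79.4, 94.8 and 138 in ALT 1 to ALT 5, against 225, 208 and 209 in telomerase 1 to 3, and fell by 1.24 on the log2 scale (limma adjusted p = 0.00788). Wfdc17, a small secreted protein of activated macrophages, had 153, 368, 255, 396 and 347 in the ALT tumours, against 871, 1219 and 609 in the telomerase tumours, and fell by 1.53 (adjusted p = 0.0079). In both genes every ALT tumour lay below every telomerase tumour, and the call held whichever array was left out (highest adjusted p = 0.0397 and 0.0385).

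Clec4a3, a C-type lectin receptor of myeloid cells, fell by 0.83 (adjusted p = 0.022), and Fcgr3, an activating IgG receptor named after its values were seen, fell by 0.55 (adjusted p = 0.0279). The genes that rose, Ncf4 (0.76, adjusted p = 0.0259) and Cyba (0.45, adjusted p = 0.0389, also named after its values were seen), encode parts of the NADPH oxidase of phagocytes. Cybb, the catalytic partner of Cyba, had signals of 104 ± 25.7 in ALT tumours (SD, n = 5) and 134 ± 59.4 in telomerase tumours (SD, n = 3), with an adjusted p of 0.583. Without telomerase 1, and likewise without telomerase 2, 0 of the 32 rose and 2 fell. With the acinar level as a covariate 1 rose and 3 fell. The call for Fcgr3 was also lost without ALT 1 or telomerase 3 and that for Cyba without ALT 2, ALT 4 or telomerase 3, with adjusted p up to 0.103 and 0.138. Within the arrays with acinar transcripts, telomerase 3 is the single telomerase tumour. The calls for Fcgr2b, Wfdc17, Clec4a3, Fcgr3, Ncf4 and Cyba were all lost there, and a gene without a call over all the tumours passed instead. Tyrobp, the adaptor of many activating receptors of myeloid cells, lay at −0.01 on the log2 scale (adjusted p = 0.958), and Cd33 was below 16 in every array.

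**Figure D5:**
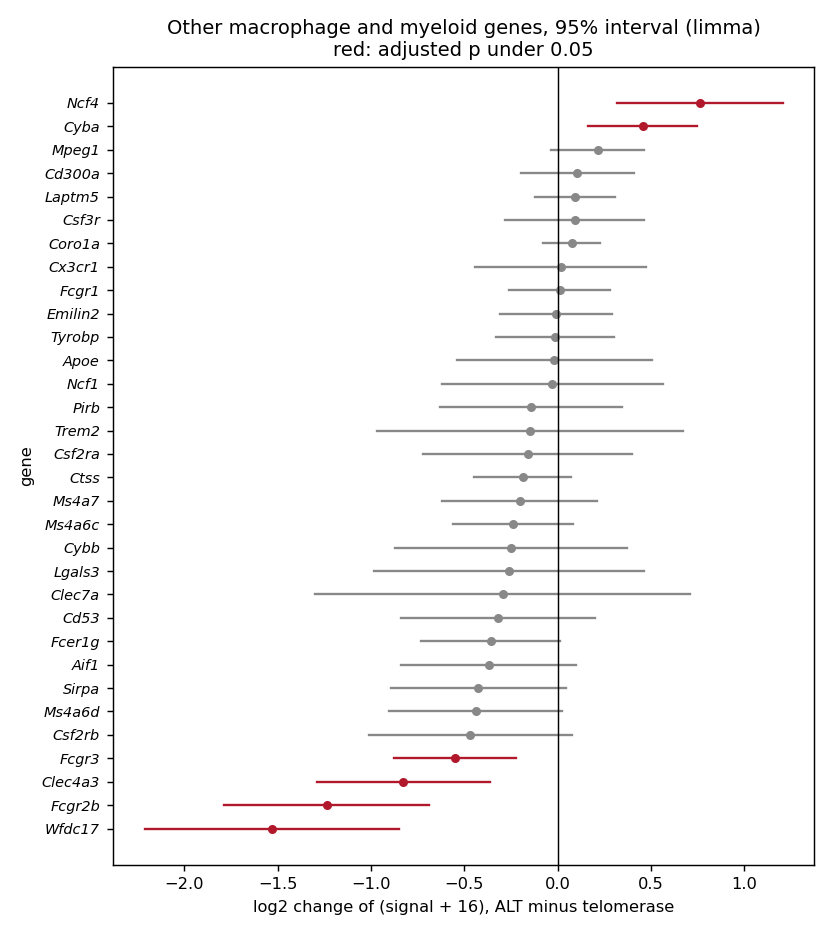
Log2 change (ALT minus telomerase, signal plus 16) of the 32 tested genes of the macrophage and myeloid list, with limma 95% intervals; red marks an adjusted p under 0.05. Ncf4 and Cyba are the 2 that rose, and Fcgr3, Clec4a3, Fcgr2b and Wfdc17 the 4 that fell.

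Among 23 tested ligands, adaptors and transcription factors around CSF1R, 3 rose and 1 fell, 17.4% beside 17.5% of all genes. Maf, a factor of macrophages and of T cells, had signals of 2532, 2179, 1197, 1914 and 2027 in ALT 1 to ALT 5, against 306, 381 and 833 in telomerase 1 to 3, and rose by 2.02 on the log2 scale (limma adjusted p = 0.00226). Grb2, a general adaptor of receptor signalling, rose by 1.21 (adjusted p = 0.000142; 0.40 with its probe sets averaged), and Tfeb, a regulator of lysosomal genes, rose by 0.52 (adjusted p = 0.00877). Id3, an inhibitor of helix-loop-helix factors in T cells and macrophages, fell by 1.26 (adjusted p = 0.00968, and 0.0538 without telomerase 1). Maf and Id3 are also expressed by T cells, the cells of the tumour.

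No gene of the remaining complement cascade passed: of 13 tested genes 0 passed with limma, beside 17.5% of all genes. An unadjusted p under 0.05 was found for 2, beside 31.4% of all genes, and the median log2 change was −0.09. C3ar1, the receptor for the C3a fragment on myeloid cells, had signals of 60.01 ± 29.6 in ALT tumours (SD, n = 5) and 81.1 ± 23.4 in telomerase tumours (SD, n = 3), with an adjusted p of 0.382. Of 20 tested genes of the uptake of dead cells and debris, receptors and bridging proteins among them, 0 rose and 2 fell, 10% beside 17.5% of all genes. Pros1, protein S, which bridges dying cells to the receptors Mertk, Axl and Tyro3, had 57.5, 56.5, 63.4, 46.9 and 91.4 in ALT 1 to ALT 5, against 136, 163 and 132 in telomerase 1 to 3, and fell by 1.03 (limma adjusted p = 0.0033). Lrp1, an endocytic receptor, fell by 0.48 (adjusted p = 0.0396), a call that was lost without ALT 1, 2 or 4 or without any 1 of the telomerase tumours, with adjusted p up to 0.176. Msr1, the class A scavenger receptor, had 86.2 ± 44.7 in ALT tumours (SD, n = 5) and 144 ± 26.3 in telomerase tumours (SD, n = 3) and did not pass (adjusted p = 0.128).

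Of 23 tested lysosomal genes 2 rose and 3 fell, 21.7% beside 17.5% of all genes. Lipa, the acid lipase, rose by 0.70 (limma adjusted p = 0.000555), with 1616 to 1951 in ALT tumours and 1012 to 1149 in telomerase tumours. Lgmn, a protease of the endolysosome that is high in macrophages, fell by 0.83 (adjusted p = 0.00847), with 227 to 391 in ALT tumours and 470 to 595 in telomerase tumours. Scarb2, a lysosomal membrane protein, and Grn, progranulin, fell by 0.41 and 0.49 (adjusted p = 0.0235 and 0.0276). Npc1, a cholesterol transporter named after its values were seen, rose by 0.36 (adjusted p = 0.0339). Without telomerase 1, telomerase 2 or telomerase 3, each left out on its own, 1 lysosomal gene rose and 1 fell. Scarb2 was also lost without ALT 1 and Grn without ALT 2 or ALT 3, and Scarb2 turned to 0.18 when its probe sets were averaged.

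Of 11 tested leukocyte integrins, their partners and ligands 3 rose and 0 fell, 27.3% beside 17.5% of all genes, 7.48% as higher. Itgb2, the beta chain that pairs with Itgam, had 2993 ± 406 in ALT tumours (SD, n = 5) and 2132 ± 390 in telomerase tumours (SD, n = 3) and rose by 0.49 (limma adjusted p = 0.0392). Itgal, the alpha chain of LFA-1 in T cells, rose by 0.58 (adjusted p = 0.0395) and Itgb7 by 1.18 (adjusted p = 0.00303). Without telomerase 1 or 2, or without ALT 1, 2 or 4, 1 of the 3 passed, and the calls for Itgb2 without ALT 3 and for Itgal without telomerase 3 were lost too (highest adjusted p = 0.152 and 0.125). Itgb2 and Itgal are expressed by T cells as well, and Itgax, the CD11c chain of myeloid cells, had a log2 change of 0.05 (adjusted p = 0.916).

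Markers of activation states and of related cells passed singly or not at all. Of 13 tested genes of macrophage states 0 rose and 1 fell, 7.69% beside 17.5% of all genes. Il10, an anti-inflammatory cytokine also made by T cells, fell by 1.16 (limma adjusted p = 0.0411). Its signals were 23.3 to 54.1 in ALT tumours and 47.8 to 184 in telomerase tumours. The call was lost without ALT 1, ALT 2, ALT 3, telomerase 1 or telomerase 2, with adjusted p up to 0.145. Of 7 tested monocyte genes 0 rose and 1 fell, 14.3% beside 17.5% of all genes. That gene was Ccr2, the receptor that brings monocytes into tissue, with 40.2, 58.9, 38.2, 30.6 and 107 in ALT 1 to ALT 5, against 178, 246 and 136 in telomerase 1 to 3 (log2 change −1.57, adjusted p = 0.00711). Of 8 tested dendritic cell genes 0 rose and 1 fell, 12.5% beside 17.5% of all genes. This was Ccr7, which fell by 1.41 (limma adjusted p = 0.00474), and naive T cells express it too. Its signals were 3.06 to 22.3 in ALT tumours and 40.4 to 67.5 in telomerase tumours. Every ALT signal of Ccr7 was below the filter signal of 25.3. Without detection calls these cannot be set against background, so the size of the fall is uncertain. Of 3 tested mast cell and eosinophil genes 1 rose, 33.3% beside 17.5% of all genes. It was Kit (0.71, limma adjusted p = 0.0183), lost without telomerase 1 or 3. Of 8 tested endothelial genes 1 fell, 12.5% beside 17.5% of all genes. It was Egfl7 (−0.49, limma adjusted p = 0.0185), lost without telomerase 1 or 2. Of 3 tested neutrophil, 3 natural killer and 4 B-cell genes 0 passed with limma, beside 17.5% of all genes. An unadjusted p under 0.05 was found for 2, 0 and 2 of them, beside 31.4% of all genes. Within the 4 arrays with acinar transcripts, where 336 of all 12369 genes passed, Maf and Grb2 passed, while Tfeb, Id3, Pros1, Lrp1, Lipa, Lgmn, Scarb2, Grn, Itgb7, Itgb2, Itgal, Il10, Ccr2 and Ccr7 did not. Npc1 was not recomputed there. Within the 4 arrays without them, Tfeb, Lrp1, Lgmn, Scarb2, Grn, Itgal, Il10, Ccr7, Fcgr3 and Cyba did not pass. Kit and Egfl7 passed in neither set of arrays. With the acinar level as a covariate over the 8 tumours, the calls for Lrp1, Itgb2, Itgal, Il10, Fcgr3 and Cyba were lost.

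Over the 9 arrays, the 10 other genes whose log2 signal was most like the mean of the centred markers were Ccdc66 (r = 0.90), Klk1b27 (0.88), Ccl9 (0.87), Chd8 (0.86), Thtpa (0.86), Add1, Lats2, Dcn, Arid3a and Rc3h1 (0.85 to 0.83). Ccl9, a chemokine of macrophages, had signals of 243, 177, 192, 247 and 265 in ALT 1 to ALT 5, against 208, 146 and 464 in telomerase 1 to 3 and 187 in the parental tumour. Klk1b27 had 369 in telomerase 3 and 7.45 to 114 in the other arrays. Telomerase 3 also had the highest mean of the markers, and these likenesses were not recomputed without it. Dcn, decorin of fibroblasts, had 684 to 1185 in ALT tumours, against 498 to 1249 in telomerase tumours. Among these 10 genes 4 lie on chromosome 14, which holds 3.37% of the tested genes. That chromosome was picked after the list was seen, so the count is a description only. Among the 10 genes most like the mean of the C1q chains, Lyz2 and Cd14 the counts were 4, 0 and 1. None of the members of the other macrophage list was among the 10.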

How the data were processed

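Gene expression was measured in 9 tumours on Affymetrix Mouse Genome 430 2.0 arrays. The deposited intensity values are linear signals from MAS5, per the submitters' processing notes; no source used here gives its version or scaling target, and the table holds no detection calls. Of 45101 probe sets, 34958 are annotated with 1 gene, 932 with several and 9211 with none; only the first were used. MAS5 sets no floor, so dim signals are noisy, and 16 was added before log2. For each gene the probe set with the highest mean was kept, and the lowest 40% of probe-set means were left out (a mean signal below 25.3). ALT (n = 5) and telomerase (n = 3) tumours were compared with limma 3.58.1 in R 4.3.3 (lmFit, eBayes with an intensity trend, two-sided, Benjamini-Hochberg over 12369 genes, threshold 0.05); a second fit used 22354 single-gene probe sets. The parental tumour, without a replicate, stayed out of the fit. The procedure was tested on simulated data.

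The members and gene lists were chosen with earlier results of these data known. The genes named from each list were the 4 with the smallest p among those past the threshold; Fcgr3, Cyba, Npc1, Cybb, Tyrobp, Cd33, Ly96, Tlr4, C3ar1, Msr1, Itgax and Lyz1 were named after their values were seen, and the fibroblast list without Thy1 was made then too. Correlations were taken over log2(signal + 16). Promoters came from the RefSeq table of build GRCm38.p6. Alternatives were other pseudocounts (1 and 64), filters, scalings, probe-set rules, treatments of the parental tumour, moderation, a replicate block, 1 array left out at a time, the arrays with and without acinar transcripts, and the acinar level as a covariate. Figures were drawn with matplotlib 3.10.9.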

Additional observations from a re-analysis of the deposited data

Results flagged for a closer look

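In 2 of the 74 sets of values tested, 1 ALT tumour stood far from the other 4; chance flags about 1 in 20 such sets. The summed neutrophil signal was 552.94 in ALT 5, against 434.5 to 446.43 in the other ALT tumours. The summed natural killer cell signal was 1364.67 in ALT 4, against 752.59 to 888.51 in the other ALT tumours. None of the 10 macrophage markers had such a tumour.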

How the results depend on the processing

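Among the 10 markers, the rise of Cd14 in ALT tumours kept its direction in 24 alternatives and passed in 20, with log2 changes from 0.54 to 0.99 and adjusted p from 0.00447 to 0.426. It was lost with the replicate block (0.83, limma adjusted p = 0.111), without telomerase 1 or 2, and within the arrays with acinar transcripts. The marker count was 0 with the replicate block, 2 at an adjusted p of 0.1 and 0 to 2 when 1 array was left out, and over probe sets also 0 to 2. The replicate numbers are shared only as numbers: same-numbered deviations correlated at −0.30, −0.40 and −0.57. The count over all genes, 2170, was 991 with the replicate block, 833 and 336 in the arrays without and with acinar transcripts, and 1163 to 2097 with 1 array left out. The count of other macrophage genes was 1 in the arrays with acinar transcripts and 2 to 6 with 1 array left out. Signs turned for Adgre1 with quantile normalisation (0.0561), median centring (4.18e-05) and in the arrays without acinar transcripts (0.263), where Cd68 (0.0924) and Itgam (0.0996) turned too; with 1 array left out Adgre1 ran from −0.184 to 0.118 and Itgam from −0.249 to 0.104. Scarb2 was 0.182 as a mean of probe sets. The alternatives on acinar arrays and left-out arrays use fewer samples; other causes were not tested. Itgam was not tested with the filter at 60%. The alternatives for the gene lists other than the macrophage list, and for the genes named from all lists, were added after seeing the data. With no detection calls, signals near the filter, Itgam among them, cannot be set against background.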
